A study of Mus musculus with 4 samples.

Results

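The IFITM genes encode interferon-induced transmembrane proteins, and 5 of them, Ifitm1, Ifitm2, Ifitm3, Ifitm6 and Ifitm10, were followed here in mouse type 1 innate lymphoid cells (ILC1s). They were picked by symbol from a table of 40481 genes, and each symbol matched a single gene. ILC1s are tissue-resident relatives of natural killer cells, and the sequenced cells are described as positive for the integrin CD49a. The 2 libraries labelled KO, numbered 3 and 4, came from mice with the genotype Ncr1-iCre Inpp4b flox/flox. The 2 WT libraries, numbered 1 and 2, came from Inpp4b flox/flox mice, so both groups carry the floxed alleles and differ by the iCre transgene, which is named after the gene of the receptor NKp46. The presence of iCre and the loss of Inpp4b therefore cannot be told apart. Liver is given as the tissue of WT library 1, and for the others only the cell type is given. The age of the mice, and whether each library came from a separate mouse, are not given in the sources used here, so the p-values given here rest on a spread that may be technical.

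IFITM proteins are small proteins of the plasma membrane and of endosomes and lysosomes, where they hinder the fusion of enveloped viruses with the host membrane. Most of them are switched on by type I and type II interferons, which act through the STAT and IRF factors that bind response elements close to the start of such genes. IFITM3 acts mainly in endosomes, and IFITM1 mainly at the cell surface. In human B cells IFITM3 also serves as a scaffold for phosphoinositide 3-kinase signalling at the membrane. Ifitm6 is known in the mouse from macrophage-lineage cells, and Ifitm10 is the most divergent of the family.

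Ifitm2, Ifitm1, Ifitm3 and Ifitm6 lie together in 63.1 kb of chromosome 7 (mm10), and Ifitm10 lies 1.31 Mb further on. On this build Ifitm3 (ENSMUSG00000025492) spans 141009586 to 141010770 on the minus strand and Ifitm2 (ENSMUSG00000060591) spans 140954837 to 140955987 on the minus strand. Ifitm6 (ENSMUSG00000059108) spans 141015699 to 141017924 on the minus strand, and Ifitm1 (ENSMUSG00000025491) spans 140967221 to 140969825 on the plus strand. Ifitm10 (ENSMUSG00000045777) spans 142325837 to 142373753 on the minus strand.

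The coding sequences of these paralogs are alike, which bears on how reads can be assigned to them. Over 411 aligned coding bases Ifitm2 and Ifitm3 were 79.6% identical, and Ifitm1 was 80.5% identical to Ifitm3 and 78.8% to Ifitm2. Identity with Ifitm6 was 67.2% for Ifitm2 and 64.9% for Ifitm3, and with Ifitm10 it was 61.1% and 58.2%. The longest run shared letter for letter by the coding sequences of Ifitm2 and Ifitm3 was 69 bases, shown here in the direction of the coding strand because a read within it fits both genes. It starts at coding base 130 of Ifitm2 (chr7:140955718-140955786) and at coding base 133 of Ifitm3 (chr7:141010445-141010513), inside a coding exon of each gene, per the GENCODE M21 transcripts of the mm10 build.
Ifitm2 and Ifitm3 shared run: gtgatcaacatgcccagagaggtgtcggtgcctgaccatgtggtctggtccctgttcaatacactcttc
The next longest runs were 64 bases between Ifitm1 and Ifitm3 and 40 bases between Ifitm1 and Ifitm2, against 16 or fewer for any pair of these genes with Ifitm6 or Ifitm10. The values of Ifitm1, Ifitm2 and Ifitm3 are therefore uncertain to the extent that reads from such stretches were dropped or assigned to the wrong copy. In the same annotation Ifitm2 shares 268 exon bases with Gm45717 on the same strand, and Ifitm10 shares 215 with Gm49369. Neither of these genes has a line in the count table.

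The promoter windows of Ifitm3, Ifitm2 and Ifitm6 are shown because these 3 genes had the largest fold changes in the family. Each holds 250 bases before and 50 bases after the annotated start (RefSeq, GRCm38.p6, minus strand), written 5′ to 3′ in the direction of transcription. Capitals mark the core of the interferon-stimulated response element, searched for as GAAANNGAA on both strands.
Ifitm3 promoter, chr7:141010695-141010994: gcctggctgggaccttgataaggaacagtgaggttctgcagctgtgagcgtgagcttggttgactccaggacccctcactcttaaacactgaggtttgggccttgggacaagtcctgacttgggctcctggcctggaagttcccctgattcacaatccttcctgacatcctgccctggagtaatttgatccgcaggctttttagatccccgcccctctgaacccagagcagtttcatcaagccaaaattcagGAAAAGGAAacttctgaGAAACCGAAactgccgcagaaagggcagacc
Ifitm2 promoter, chr7:140955912-140956211: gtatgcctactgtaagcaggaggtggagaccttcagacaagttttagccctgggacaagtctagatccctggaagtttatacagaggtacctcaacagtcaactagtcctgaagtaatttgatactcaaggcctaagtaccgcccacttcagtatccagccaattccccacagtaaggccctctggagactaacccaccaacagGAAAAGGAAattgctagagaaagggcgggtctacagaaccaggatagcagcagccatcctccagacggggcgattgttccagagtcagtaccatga
Ifitm6 promoter, chr7:141016843-141017142: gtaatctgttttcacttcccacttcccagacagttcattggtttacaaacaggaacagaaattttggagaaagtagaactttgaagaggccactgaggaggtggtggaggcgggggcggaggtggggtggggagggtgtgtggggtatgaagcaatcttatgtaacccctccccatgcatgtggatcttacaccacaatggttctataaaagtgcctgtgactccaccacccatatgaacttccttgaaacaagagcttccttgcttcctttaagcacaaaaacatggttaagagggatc
The core occurred at 2 places in the Ifitm3 window, beginning 2 and 19 bases after the start, and at 1 place in the Ifitm2 window, beginning 46 bases before it. The windows of Ifitm6, Ifitm1 and Ifitm10 held no match. Of 32544 distinct windows of the same length over all genes, 8.53% held the core at least once and 0.621% held it at 2 or more places. The gamma-activated site, searched for as TTCNNNGAA, matched once in the Ifitm3 window, where it overlaps the second core, and once in the Ifitm6 window. It matched 8.33% of all windows.

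Library totals ranged from 42380840 to 54878210 counts. Transcripts of Inpp4b, the targeted gene, were not lower under the KO label. They stood at 142.5 and 86.0 CPM (counts scaled to library size with TMM factors) in the libraries labelled KO, against 78.7 and 106.5 CPM in WT libraries. The table counts the whole gene, and the floxed exons are not given in the sources used here, so this value does not check the deletion. Ncr1 stood at 1202 and 1077 CPM in the libraries labelled KO and at 1672 and 1772 CPM in WT libraries (adjusted p = 0.28 by edgeR and 0.0297 by DESeq2). All 15 ILC1 markers looked up were measured, and 0 were called by edgeR (before adjustment, p under 0.05: 3 higher, 1 lower). Of all genes tested by edgeR, 4.48% were higher and 5.17% lower before adjustment. DESeq2 called 2 of the ILC1 markers, Ifng and Gzmb, higher and 1, Ncr1, lower, against 1.83% and 1.34% of all genes it adjusted. Ifng, whose product is interferon gamma, had 142.7 and 171.4 CPM under the KO label, against 97.8 and 75.8 CPM in WT libraries. Gzmb had 5120 and 5797 CPM under the KO label, against 3387 and 3518 CPM in WT libraries. The adjusted p of Ifng was 0.277 by edgeR and 0.0104 by DESeq2, and that of Gzmb was 0.251 and 0.00966. Itga1, the gene of CD49a, stood at 178.9 and 206.0 CPM in the libraries labelled KO against 217.6 and 207.9 CPM in WT libraries.

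Of the 5 IFITM genes, 4 were higher in both libraries labelled KO than in either WT library, and Ifitm10 was level. Ifitm2 and Ifitm3 were chosen because they had been seen to be higher in this very comparison, so all the family's differences between the genotypes are given as a description, without a test. For the background, 19.5% of the 14863 genes tested had both libraries labelled KO above both WT libraries, and 20.8% had both below. edgeR called 21 genes higher at an adjusted p under 0.05, 0.141% of those tested, and 2 genes lower, 0.0135%. Ifitm2 and Ifitm3 are 2 of those 21 by the values that selected them, so their place there is no test. All 5 members passed the filter on low counts, and each did so in both WT libraries as well. In bulk libraries a different share of cells that make a transcript cannot be told apart from a different amount of RNA per cell.

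**Figure D1:**
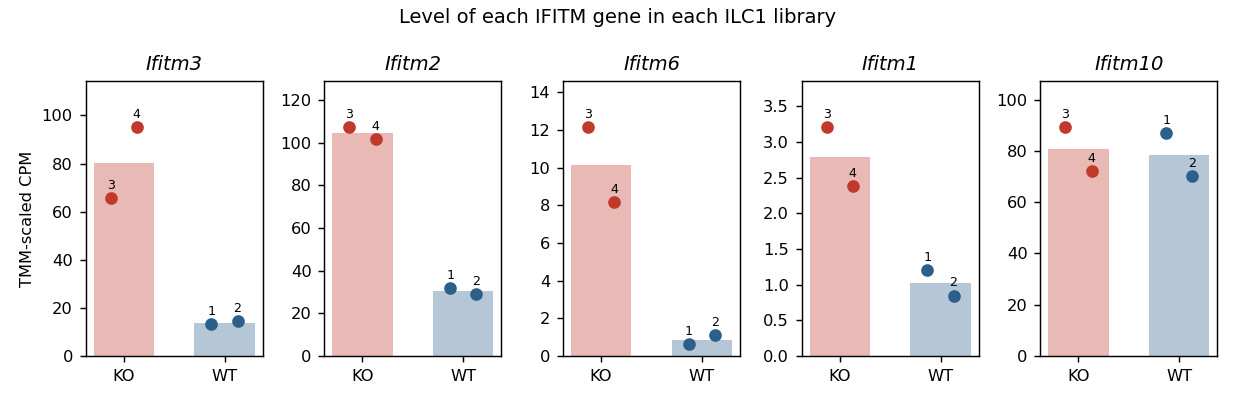
TMM-scaled CPM (vertical axis, from 0) of each IFITM gene in the 2 libraries labelled KO (red points, numbered 3 and 4) and the 2 WT libraries (blue points, numbered 1 and 2), with bars at the group means. Points of the groups are apart for Ifitm3, Ifitm2, Ifitm6 and Ifitm1 and interleave for Ifitm10.

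Ifitm3, the best-studied antiviral member, had 2817 and 4930 counts in the libraries labelled KO, against 763 and 691 counts in WT libraries. Scaled, this was 65.5 and 95.3 CPM in the libraries labelled KO, against 13.2 and 14.6 CPM in WT libraries. Every library labelled KO was at least 4.48 times as high as any WT library, and library 4 was 1.45 times as high as library 3. The means were 80.4 ± 21.02 CPM in the libraries labelled KO and 13.9 ± 1.04 CPM in WT libraries (SD, n = 2 each). The fitted log2 fold change, labelled KO over WT, was 2.53 (SE 0.26, 95% interval 1.92 to 3.15), which is a 5.79-fold difference.

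Ifitm2, its close paralog and likewise an antiviral protein gene, had 4619 and 5268 counts in the libraries labelled KO, against 1854 and 1378 counts in WT libraries. Scaled, this was 107.5 and 101.8 CPM in the libraries labelled KO, against 32.0 and 29.2 CPM in WT libraries. Here the libraries of a group were close to each other, and the groups were far apart. The means were 104.6 ± 4.005 CPM in the libraries labelled KO and 30.6 ± 1.98 CPM in WT libraries (SD, n = 2 each), and the fitted log2 fold change was 1.77 (SE 0.17, 95% interval 1.36 to 2.19).

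Ifitm6 had the largest fold change of the family, from a low level. It had 523 and 422 counts in the libraries labelled KO, against 37 and 52 counts in WT libraries. This was 12.2 and 8.16 CPM in the libraries labelled KO, against 0.638 and 1.10 CPM in WT libraries. The lowest library labelled KO was 7.41 times as high as the highest WT library, and the fitted log2 fold change was 3.55 (SE 0.52, 95% interval 2.29 to 4.81). Within the group labelled KO the order was the reverse of that of Ifitm3, with library 3 above library 4.

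Ifitm1, which codes for the shortest protein of the family at 106 residues, was at a low level. It had 138 and 123 counts in the libraries labelled KO, against 70 and 40 counts in WT libraries, or 3.21 and 2.38 CPM in the libraries labelled KO against 1.21 and 0.847 CPM in WT libraries. The groups did not overlap, but the fitted log2 fold change of 1.44 (SE 0.66) had a 95% interval of -0.16 to 3.04, which includes 0. At these counts the size of its difference is known only loosely.

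Ifitm10 was the member whose groups overlapped. It had 3844 and 3741 counts in the libraries labelled KO, against 5040 and 3310 counts in WT libraries, or 89.4 and 72.3 CPM in the libraries labelled KO against 86.9 and 70.1 CPM in WT libraries. The fitted log2 fold change was 0.04 (SE 0.20, 95% interval -0.43 to 0.52). The 2 other genes named Ifitm in the table were close to absent. Ifitm5, a gene of bone-forming cells, had 2 and 36 counts in the libraries labelled KO and 13 in each WT library. Ifitm7 had 13 and 1 counts in the libraries labelled KO and 1 in each WT library, too few to be tested.

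The order of the members by level was read from CPM per kb of merged exon length, since the genes differ in length. Ifitm2 led in every library, with 164.1 and 155.4 CPM per kb in the libraries labelled KO and 48.8 and 44.5 CPM per kb in WT libraries. Ifitm3 followed with 96.7 and 140.5 CPM per kb in the libraries labelled KO, against 19.4 and 21.6 CPM per kb in WT libraries. Ifitm10 came next, at 18.7 and 15.1 CPM per kb in the libraries labelled KO and 18.1 and 14.6 CPM per kb in WT libraries. Within a genotype the ranges of these neighbours did not overlap, so the top of the order was the same in both.

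The lowest places differed between the genotypes. In the libraries labelled KO, Ifitm6 at 13.4 and 9.01 CPM per kb stood above Ifitm1 at 2.94 and 2.17 CPM per kb. In WT libraries Ifitm6, at 0.705 and 1.22 CPM per kb, and Ifitm1, at 1.10 and 0.774 CPM per kb, could not be ordered because their ranges overlapped. Among all tested genes ranked per kb, Ifitm3 stood at percentiles 95.6 and 96.9 in the libraries labelled KO and 82.0 and 83.3 in WT libraries. Ifitm2 was at percentile 97.5 and 97.2 in the libraries labelled KO and at 92.0 and 90.9 in WT libraries, so both genes ranked high in WT libraries too. Per kb of coding length alone, Ifitm10 rather than Ifitm2 led in WT libraries, with means of 129.5 and 70.3 CPM per coding kb, since most of its transcript is non-coding.

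**Figure D2:**
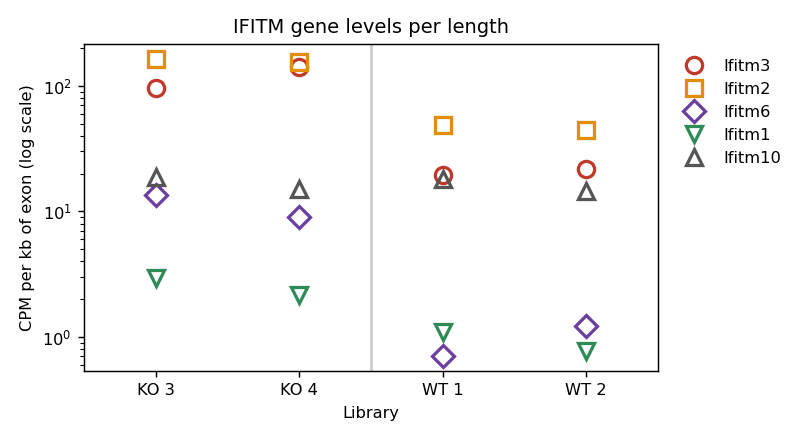
CPM per kb of merged exon length (log scale) of the 5 IFITM genes in each library, with the libraries labelled KO left of the grey line and WT libraries right of it. Ifitm2 is highest in all 4 libraries, Ifitm10 stays near 14.6 to 18.7 CPM per kb, and Ifitm6 is above Ifitm1 in both libraries labelled KO.

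Ratios between the paralogs also varied. Per kb, Ifitm3 stood at 0.589 and 0.904 times the level of Ifitm2 in the libraries labelled KO, against 0.398 and 0.484 times in WT libraries. The log2 of this ratio averaged -0.45 ± 0.44 in the libraries labelled KO and -1.19 ± 0.20 in WT libraries (SD, n = 2 each), without overlap. The difference was 0.73, and the libraries labelled KO were further from each other than the WT libraries were. Ifitm6 stood at 0.0819 and 0.0580 times the level of Ifitm2 in the libraries labelled KO, against 0.0144 and 0.0273 times in WT libraries. Ifitm1 kept overlapping ratios to Ifitm2, at 0.0179 and 0.0140 in the libraries labelled KO and 0.0226 and 0.0174 in WT libraries. With 2 libraries against 2, an exact two-sided permutation test of such a ratio cannot give a p below 0.333, so none was run.

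As a share of the summed level per kb of the 5 genes, Ifitm2 made up 55.5% and 48.2% in the libraries labelled KO and 55.4% and 53.8% in WT libraries. Ifitm3 made up 32.7% and 43.6% in the libraries labelled KO, against 22.0% and 26.1% in WT libraries. Ifitm10 made up 6.31% and 4.68% in the libraries labelled KO, against 20.6% and 17.7% in WT libraries. The sum itself was 295.8 and 322.2 CPM per kb in the libraries labelled KO and 88.2 and 82.7 CPM per kb in WT libraries.

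Among 46 other genes stimulated by type I interferon, 22 had a positive log2 fold change. All 46 were tested, and edgeR called 0 in either direction. Before adjustment 1 was higher and 5 were lower at a p under 0.05, as were 4.48% and 5.17% of all tested genes. DESeq2 called 1 higher and 0 lower (1.83% and 1.34% of the 15158 genes it adjusted), and limma-voom called 0. The median log2 fold change of the list was -0.04, beside -0.01 for all tested genes. The sum of the list was 5496 and 6213 CPM in the libraries labelled KO and 5312 and 6136 CPM in WT libraries.

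The member with the smallest p was Ifi27l2a, a small interferon-inducible protein gene, at 22.1 and 26.2 CPM in the libraries labelled KO and 7.002 and 7.28 CPM in WT libraries. It differed by 1.76 on the log2 scale (SE 0.29, edgeR adjusted p = 0.166), and it was the gene that DESeq2 called. Ddx58, which encodes the viral RNA sensor RIG-I, was at 151.0 and 153.7 CPM in the libraries labelled KO and 206.6 and 305.2 CPM in WT libraries (edgeR adjusted p = 0.348). Trim25, a ubiquitin ligase gene of the same pathway, was at 26.3 and 22.5 CPM in the libraries labelled KO and 37.9 and 38.8 CPM in WT libraries (edgeR adjusted p = 0.43).

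Genes induced mainly by interferon gamma, the type II interferon, and genes of the interferon receptors gave no edgeR calls either. Of 21 interferon-gamma-induced genes tested, edgeR called 0, and their median log2 fold change was 0.13. Before adjustment 4 were higher and 0 lower, against 4.48% and 5.17% of all tested genes. Both libraries labelled KO were above both WT libraries for 9 of the 21 and below both for 3, against 19.5% and 20.8% of all tested genes. DESeq2 called 1 of the 21, the chemokine gene Cxcl9, and limma-voom called 0. Cxcl9 was at 1.84 and 12.3 CPM in the libraries labelled KO and 0.190 and 0.550 CPM in WT libraries (edgeR adjusted p = 0.322). Gbp2, an antimicrobial GTPase gene, was at 161.3 and 148.5 CPM in the libraries labelled KO and 111.2 and 115.1 CPM in WT libraries (edgeR adjusted p = 0.399). Irf1, a transcription factor gene of the interferon response, was at 336.2 and 378.7 CPM in the libraries labelled KO and 265.2 and 267.6 CPM in WT libraries (edgeR adjusted p = 0.404).

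Of 21 receptor and signalling genes tested, edgeR called 0, and the median was 0.06. Before adjustment 2 were higher and 2 lower, against 4.48% and 5.17% of all tested genes. Ifngr2, a chain of the interferon gamma receptor, was the gene that DESeq2 called here, while limma-voom called 0. It was at 3.89 and 5.97 CPM in the libraries labelled KO and 1.38 and 1.19 CPM in WT libraries (edgeR adjusted p = 0.361). Tyk2, a kinase of the type I receptor, was at 91.6 and 86.8 CPM in the libraries labelled KO and 104.9 and 173.4 CPM in WT libraries (edgeR adjusted p = 0.494).

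Genes whose products bind or modify IFITM proteins were also without calls. Of 15 tested, edgeR, DESeq2 and limma-voom called 0 (edgeR before adjustment: 1 higher, 0 lower), and their median log2 fold change was -0.02. Over all tested genes, 4.48% were higher and 5.17% lower before adjustment. Cd81, a tetraspanin gene whose product associates with IFITM1 in human cells, was at 22.3 and 32.7 CPM in the libraries labelled KO and 15.1 and 14.0 CPM in WT libraries (edgeR adjusted p = 0.402). Setd7, whose methyltransferase modifies human IFITM3, was at 9.94 and 10.1 CPM in the libraries labelled KO and 14.1 and 14.0 CPM in WT libraries. Vapa, a membrane contact protein gene whose product binds human IFITM3, was at 69.9 and 55.5 CPM in the libraries labelled KO and 71.1 and 79.0 CPM in WT libraries. Of the wider superfamily that includes the IFITM proteins, 4 genes were tested and edgeR, DESeq2 and limma-voom called 0 (edgeR before adjustment: 0 higher, 1 lower). That gene, Tmem91, was at 36.2 and 36.4 CPM in the libraries labelled KO and 44.5 and 94.3 CPM in WT libraries (edgeR adjusted p = 0.487).

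**Figure D3:**
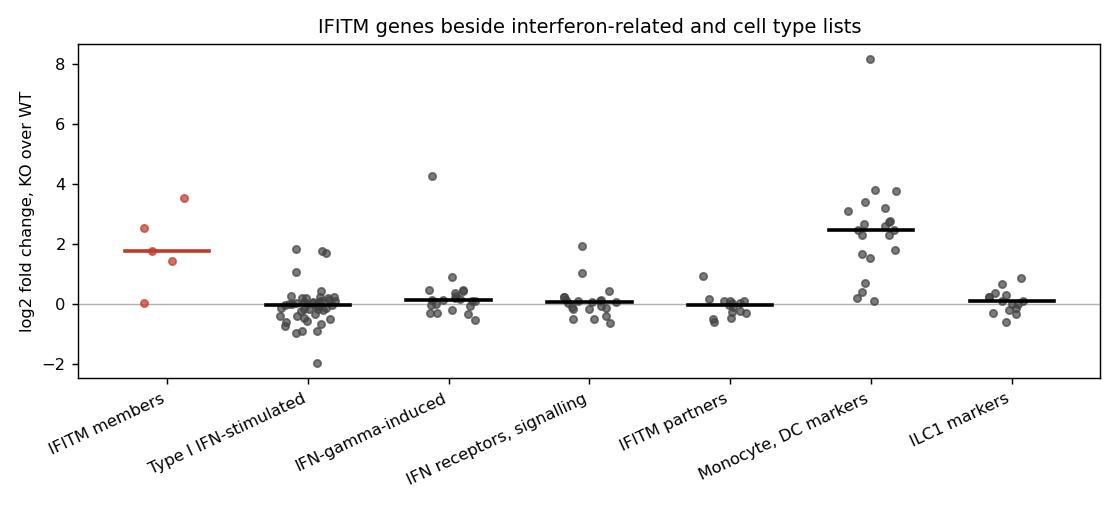
Log2 fold change, labelled KO over WT, of the IFITM genes (red) and of the tested genes of 6 lists (grey), with a bar at each median. The IFITM genes and the monocyte and dendritic cell markers lie mostly above 1, and the interferon-related lists centre near 0. The single point above 8 is Fcgr1, which had 1 and 0 counts in WT libraries.

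The genes whose levels across the 4 libraries were most like those of Ifitm3 were H2-Ab1, Ctsh, Cd74, Cybb and H2-Aa. Likeness was the root mean square difference of the centred log2 CPM over the 4 libraries, among 7697 genes that averaged at least 10 CPM. It was 0.13, 0.14, 0.14, 0.17 and 0.18 for these genes. H2-Ab1, a class II histocompatibility gene, was at 236.6 and 273.2 CPM in the libraries labelled KO and 40.7 and 42.9 CPM in WT libraries. Cybb, which encodes the phagocyte oxidase subunit, was at 60.3 and 67.4 CPM in the libraries labelled KO and 9.85 and 13.4 CPM in WT libraries.

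For Ifitm2 the nearest genes were Lgmn, Ifi27l2a, Ms4a6c, Slc16a3 and Rab31, with differences of 0.11, 0.13, 0.14, 0.17 and 0.18. Lgmn, a lysosomal protease gene, was at 19.9 and 16.02 CPM in the libraries labelled KO and 4.78 and 4.85 CPM in WT libraries. Ms4a6c, a membrane protein gene of myeloid cells, was at 23.5 and 17.6 CPM in the libraries labelled KO and 5.76 and 5.91 CPM in WT libraries. Among the 7697 genes, Ifitm2 itself stood at place 28 in likeness to Ifitm3, with a difference of 0.44. Ifitm3 stood at place 43 in likeness to Ifitm2. These likenesses rest on 4 libraries, and all genes share the depth of each library and the split by genotype.

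In a pooled list of monocyte and dendritic cell markers, most genes were higher in the same libraries. Of 21 such markers tested, edgeR called 12 higher and 0 lower, where it called 0.141% of all tested genes higher and 0.0135% lower. DESeq2 called 15 higher and 0 lower, against 1.83% and 1.34% of all genes it adjusted. The 21 markers had a median log2 fold change of 2.47, and some of these genes were known to be higher in these data when the list was written. Their summed level was 3361 and 3969 CPM in the libraries labelled KO and 1089 and 1247 CPM in WT libraries. Lyz2, the lysozyme gene of phagocytes, was at 626.0 and 582.5 CPM in the libraries labelled KO and 43.1 and 71.5 CPM in WT libraries (edgeR adjusted p = 0.0467). Of the dendritic cell markers in the list, Xcr1 was at 24.9 and 23.4 CPM in the libraries labelled KO and 22.8 and 19.7 CPM in WT libraries. Itgax was at 510.2 and 538.3 CPM in the libraries labelled KO and 479.6 and 492.3 CPM in WT libraries. Xcr1, Itgax and Siglech were not called by edgeR or DESeq2, and Clec9a stayed under 10 counts in every library. Of the other markers in the list, Ly6c2, Ccr2 and Cx3cr1 were not called by either tool. Ly6c2 was at 48.2 and 52.7 CPM in the libraries labelled KO and 28.0 and 33.9 CPM in WT libraries. For Ccr2 the values were 224.0 and 192.9 CPM against 148.3 and 168.0 CPM, and for Cx3cr1 15.8 and 8.85 CPM against 1.24 and 6.56 CPM.

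Of the markers of other cell types, edgeR called Trac of the T cell list and Klra7 of the conventional NK cell list higher, and 0 of the remaining lists. Of the tested markers, DESeq2 called 4 of 12 T cell, 1 of 11 conventional NK cell and 2 of 4 neutrophil markers higher. It also called 2 of 10 Kupffer cell and macrophage, 1 of 6 endothelial and stellate and 1 of 11 hepatocyte markers higher. It called 0 of 6 B cell markers, and 0 lower in any of these lists. Of all genes it adjusted, DESeq2 called 1.83% higher and 1.34% lower. The T cell receptor chain gene Trac was at 85.1 and 200.9 CPM in the libraries labelled KO and 7.31 and 5.67 CPM in WT libraries. Cd3e, a chain gene of the same receptor complex, was at 152.5 and 371.0 CPM in the libraries labelled KO and 26.5 and 15.1 CPM in WT libraries (edgeR adjusted p = 0.095). Cd3d, another chain gene, was at 87.1 and 209.3 CPM in the libraries labelled KO and 21.4 and 18.5 CPM in WT libraries, and in all 3 genes library 4 was the highest. Cd8a, a T cell coreceptor gene, was at 59.8 and 141.3 CPM in the libraries labelled KO and 15.2 and 19.7 CPM in WT libraries. Of the 12 T cell markers tested, 8 had a positive log2 fold change. It was negative for Trbc1 (-0.38, SE 0.19), Cd8b1 (-1.07, SE 1.71), Lef1 (-0.10, SE 0.25) and Tcf7 (-0.04, SE 0.21). The macrophage marker Adgre1 was at 18.8 and 16.6 CPM in the libraries labelled KO and 2.57 and 2.77 CPM in WT libraries (edgeR adjusted p = 0.0684). The 13 T cell markers summed to 3081 and 4161 CPM in the libraries labelled KO and 2583 and 2579 CPM in WT libraries, most of it from Cd3g, at 1623 and 1930 CPM in the libraries labelled KO and 1469 and 1255 CPM in WT libraries. The 13 Kupffer cell and macrophage markers summed to 74.1 and 71.7 CPM in the libraries labelled KO and 33.5 and 24.0 CPM in WT libraries. The 12 neutrophil markers summed to 250.2 and 168.1 CPM in the libraries labelled KO and 102.8 and 97.6 CPM in WT libraries, most of it from Mmp9, while 7 of them, Ly6g, Retnlg and Cxcr2 included, stayed under 10 counts everywhere. The 12 endothelial and stellate markers summed to 86.8 and 96.9 CPM in the libraries labelled KO and 67.5 and 94.3 CPM in WT libraries. Most of it came from Pecam1, with means of 65.9 CPM in the libraries labelled KO and 68.6 CPM in WT libraries. The 8 B cell markers summed to 652.6 and 804.7 CPM in the libraries labelled KO and 719.1 and 1046 CPM in WT libraries. Nearly all of it came from Ighm, with means of 712.2 CPM in the libraries labelled KO and 867.4 CPM in WT libraries. Cd79a had means of 0.81 and 0.77 CPM, and Pax5 stayed under 10 counts everywhere. The 12 hepatocyte markers summed to 200.8 and 226.8 CPM in the libraries labelled KO against 195.8 and 123.0 CPM in WT libraries. The 11 conventional NK cell markers summed to 1008 and 1400 CPM in the libraries labelled KO and 664.1 and 687.6 CPM in WT libraries. Of these, Klra7 was at 250.8 and 520.6 CPM in the libraries labelled KO and 27.8 and 37.5 CPM in WT libraries. Prf1 was at 512.1 and 631.2 CPM in the libraries labelled KO and 398.2 and 465.5 CPM in WT libraries. Eomes, Klra4, S1pr5 and Zeb2 had means of at most 3.6 CPM in either group. The log2 fold change was positive for 10 of the 11 markers and negative for Itga2 (-0.34, SE 0.36). The part of other cells in the IFITM levels was not tested.

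Of 27 other protein-coding genes in the table within 250 kb of a cluster member, 22 were tested, and edgeR, at either an adjusted or an unadjusted p under 0.05, and DESeq2 called 0 of them. The 12 that averaged at least 10 CPM had log2 fold changes from -0.29 (Phrf1) to 0.47 (Pgghg). Irf7, the interferon regulatory factor gene of the same region, was at 123.5 and 174.7 CPM in the libraries labelled KO and 153.9 and 177.4 CPM in WT libraries. Rnh1, the ribonuclease inhibitor gene, was at 186.7 and 206.1 CPM in the libraries labelled KO and 175.3 and 183.8 CPM in WT libraries. Pkp3, a desmosome protein gene, was at 175.6 and 213.7 CPM in the libraries labelled KO and 159.4 and 163.1 CPM in WT libraries, and Ric8a, a G protein chaperone gene, at 141.8 and 133.3 CPM in the libraries labelled KO against 121.0 and 128.1 CPM in WT libraries. Beside Ifitm10, 4 neighbours were tested and edgeR and DESeq2 called 0. Before adjustment edgeR had 1 of the 4 higher and 0 lower, against 4.48% and 5.17% of all tested genes. Among these neighbours was Ctsd, the cathepsin D gene, at 2305 and 2901 CPM in the libraries labelled KO and 2107 and 2120 CPM in WT libraries.

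**Figure D4:**
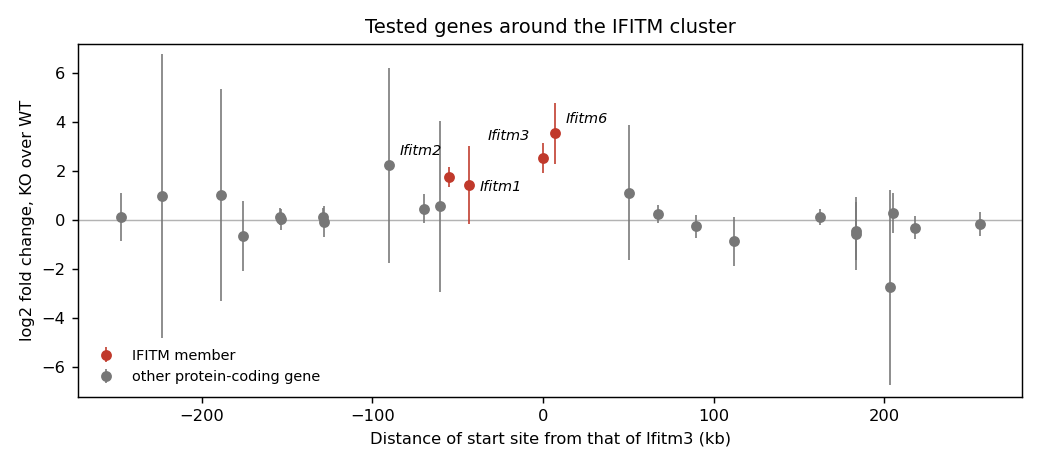
Log2 fold change, labelled KO over WT, with its 95% interval (bars) of the tested genes around the IFITM cluster, against the distance of each start site from that of Ifitm3 in kb. The 4 IFITM genes (red) lie above 1, and the 12 neighbours of at least 10 CPM (among the grey points) lie between -0.29 and 0.47.

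Leaving out a library sets 1 library against 2, and the spread then comes from the pair alone, with the lone library assumed to vary alike. Over all genes edgeR then called 18 higher and 0 lower without KO library 3, 0 and 0 without KO library 4, 1 and 2 without WT library 1, and 1 and 0 without WT library 2. Of the monocyte and dendritic cell markers, it called 5, 0, 1 and 1 higher in these 4 fits, where the median log2 fold change of the list was 2.55, 2.33, 2.25 and 2.70. The log2 fold changes of the members stayed between 2.21 and 2.76 for Ifitm3, 1.71 and 1.84 for Ifitm2, and 3.20 and 3.99 for Ifitm6.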

How the data were processed

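The authors deposited raw read counts per Ensembl gene for 4 libraries; RNA from ILC1s, CD49a+ per the series' design text, was made into SMARTer low-input libraries, per the labels' protocols. The submitters' processing notes name bcl2fastq, STAR, Subread, featureCounts, DESeq2 and mm10. The annotation, strand setting and treatment of reads that map to several places are not given in the sources used here. Of the table's lines, 276 repeated ones, with the same counts as the first, were dropped, leaving 40481 genes, and 0 per-sample columns were left unused. Replicates differed far beyond sampling noise (chi-square per degree of freedom 89.6 for KO and 98.6 for WT), so each library was treated as 1 sample. This spread does not show whether the libraries came from separate mice.

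Low-count genes were removed by filterByExpr, TMM factors set the scale, and the fit used edgeR 4.0.16 (quasi-likelihood, robust, two-sided, genotype only, 2 residual degrees of freedom) in R 4.3.3. Adjusted p-values follow Benjamini-Hochberg over 14863 genes. The pipeline was checked on simulated counts for the sign and size of fold changes, which does not vouch for the number of genes called. Exon lengths and positions come from GENCODE M21, promoters from RefSeq (all 5 members matched). Alternatives used DESeq2 1.42.0, limma 3.58.1, other scalings and filters, and each library left out. Named genes were the members, genes called in a list or its 3 smallest p-values, the 5 nearest patterns, and up to 4 neighbours. Marker genes named beyond this, Phrf1 and Pgghg were chosen after their values were seen. Members and lists were chosen with earlier results of these data known.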

Additional observations from a re-analysis of the deposited data

How the results depend on the processing

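No paired analysis was possible because the groups share no replicate number. With another filter or tool the counts of called genes moved far more than the fold changes: edgeR called 21 higher and 2 lower, but 299 and 264 with no filter on low counts, 40 and 9 with at least 50 counts in 2 libraries, and 22 and 6 with library totals only, and DESeq2 called 278 and 203. Leaving out a library gave 0 to 18 higher and 0 to 2 lower. Over the 11 alternatives the log2 fold change of Ifitm1 ranged from 1.18 to 1.72 and that of Ifitm10 from -0.14 to 0.21, so its sign is not settled. The median of the type I interferon-stimulated genes ranged from -0.18 to 0.07, and without a filter edgeR called 1 of them higher and 2 lower. No RefSeq protein table was used, so coding lengths came from GENCODE, an alternative chosen after the data were seen. No member had repeated lines, so summing them was not run. With 2 libraries per group, Ifitm1, at 40 to 138 counts, is the least precise member.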
